A study of Mus musculus with 8 samples.

Results

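The mitochondrial genome transcripts are the 37 genes of the mouse mitochondrial chromosome, chosen as the rows of the gene count table whose symbol begins with mt-. They were 37 of 45583 rows and comprised 13 protein genes, 2 rRNA genes and 22 tRNA genes, each matched to the GENCODE annotation of GRCm38. The series held 8 RNA-seq libraries of whole ovary from female mice of the C57/Bl6 strain, 3 weeks old. Of these, 4 libraries (1118, 1119, 1120, 1121) were labelled WT and 4 (1139, 1140, 1141, 1146) GOAT KO. These mice lack ghrelin O-acyltransferase from the germline on; the enzyme puts the acyl group on the hormone ghrelin, and its gene is Mboat4. Both groups were littermates of heterozygous parents, received no treatment, and gave 1 ovary per animal, so that each library was 1 mouse. Because the tissue was a whole ovary, fewer cells of a type and less RNA per cell cannot be told apart in any level below. The question was whether mitochondrial transcripts differed in level between the ovaries of GOAT KO and WT mice.

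Mboat4 had 1, 1, 1 and 3 counts in the libraries labelled WT and 5, 7, 7 and 8 in those labelled GOAT KO, which is opposite to the labels, so directions below refer to the labels alone. Counts per gene do not show whether these reads lie in the deleted part of Mboat4. The defining markers of oocytes (Zp3, Gdf9, Ooep) and granulosa cells (Foxl2, Amh, Inha) were present in all 8 libraries, with summed levels of 497 to 604 and 3500 to 4455 counts scaled to library size (CPM). The summed level of fat markers (Adipoq, Plin1, Cidec, Ucp1) ranged from 7.06 to 15.3 CPM in WT and from 13.3 to 159 CPM in GOAT KO, and the highest value was that of GOAT KO 1139. Theca markers (Cyp17a1, Star) ranged from 64.4 to 387 CPM in WT and from 50.5 to 834 CPM in GOAT KO, highest again in 1139. Leukocyte markers (Ptprc, Cd3e, Adgre1) stood at 9.22 to 13.03 CPM in WT and 8.38 to 9.06 CPM in GOAT KO, with no overlap. The part of these differences in the values below was not tested.

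The mitochondrial genome is a small circular DNA, present in many copies in each cell, that is read from both strands as long transcripts. Most of its genes lie on 1 strand, and tRNAs punctuate them: the transcripts are cut at the tRNAs to release rRNAs and mRNAs, and the mRNAs then gain poly(A) tails, which in some cases complete the stop codon. Its protein genes encode core subunits of complexes I, III and IV and of ATP synthase, and all proteins that copy, transcribe, process and translate it are made from nuclear genes. In the ovary, the oocyte is known for its very large stock of mitochondria, which the embryo inherits.

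All 37 mt- genes had 0 counts in all 8 libraries. The 13 protein genes, which form the membrane core of the respiratory chain, were therefore at 0 in 104 of 104 table cells, the 2 rRNAs of the mitochondrial ribosome, mt-Rnr1 (12S) and mt-Rnr2 (16S), in 16 of 16, and the 22 tRNAs in 176 of 176. The libraries held 16147216 to 19481798 gene counts in total, so that a count of 0 allowed a share of at most 3 counts, or 1.54e-05% to 1.86e-05% of a library, for counting error only. The share of counts on mt- genes was 0% in each WT and each GOAT KO library, for the protein, rRNA and tRNA classes alike. A value of 0 was not particular to these rows, since 18124 rows (39.8%) were at 0 in all libraries.

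With no counts, none of the 37 genes entered edgeR's quasi-likelihood test, and 0 of 37 were called. Over the 16601 genes that did enter, 278 (1.67%) met both thresholds of the study, p under 0.05 before adjustment and a log2 change of more than 0.5 in either direction, which is what called means here. The study treated 1 library of each group as an outlier, without naming it, while all 8 libraries were used here. At a Benjamini-Hochberg adjusted p under 0.05, 4 genes (0.0241%) passed. No fold change between GOAT KO and WT can be given for any mt- gene from the counts.

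The sequence of the members bears on what a 50-base read can show. Of all 50-base windows of a gene, those that also occur in an annotated nuclear transcript cannot be assigned to either. This share was 100% for mt-Co2 (subunit II of cytochrome c oxidase), 99.9% for mt-Co3 (subunit III), 99.5% for mt-Atp6 (a subunit of ATP synthase), 98.8% for mt-Nd4l and 98.0% for mt-Nd3 (both complex I). It was intermediate for mt-Nd4 (62.2%) and mt-Co1 (51.1%) and low for mt-Nd2 (8.19%), mt-Nd5 (7.61%) and mt-Rnr2 (1.04%). It was 0 for mt-Rnr1, mt-Nd1, mt-Nd6, mt-Atp8 and mt-Cytb and for all 22 tRNA genes, which are 59 to 75 bases long and hold only 10 to 26 windows each.

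**Figure D1:**
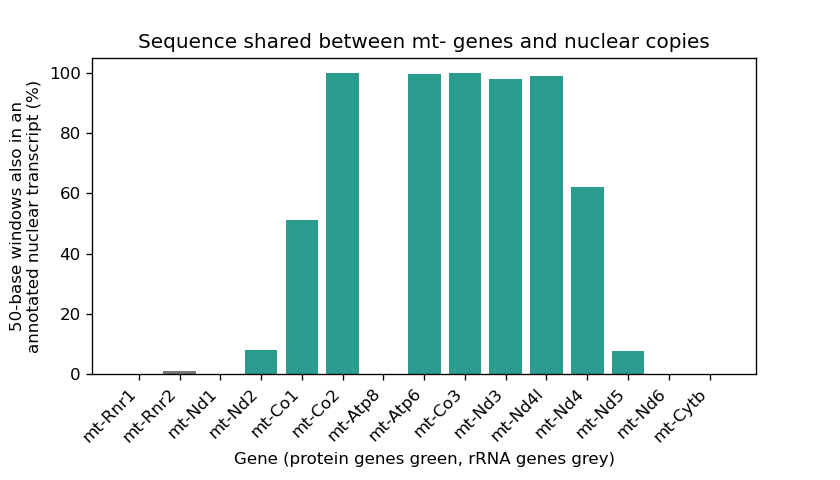
Share of the 50-base windows of each protein and rRNA gene (in genome order) that also occur in an annotated nuclear transcript, in percent. The bars from mt-Co2 to mt-Nd4l, apart from mt-Atp8 at 0, stand at 98.0% to 100%, and those of mt-Rnr1, mt-Nd1, mt-Nd6 and mt-Cytb are at 0.

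The nuclear sequences are copies of mitochondrial DNA that lie in nuclear chromosomes. The annotation held 15 genes with such a window, of which 14 were rows of the count table. All but 1 were annotated as pseudogenes; Gm20594 on chromosome 6, the only one that shared windows with mt-Rnr2, was annotated as protein coding and had 0 counts in each library. A block at chr1:24611535-24616197 (minus strand, 4663 bases) held 7 of them, in order copies of mt-Nd4, mt-Nd4l, mt-Nd3, mt-Co3, mt-Atp6, mt-Co2 and mt-Co1. The start of mt-Co2 is shown beside its copy in that block, Gm28661, and its copy on chromosome 2, Gm13341. The first is an identical copy, and the second differs in part but still shared 224 of the 635 windows of mt-Co2. Letters are from the GENCODE transcripts of GRCm38, 5′ to 3′ in the direction of the gene, and capitals mark bases that differ from mt-Co2.
mt-Co2, chrM:7013-7072, plus strand: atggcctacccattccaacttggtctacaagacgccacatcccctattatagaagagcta
Gm28661, chr1:24615506-24615565, minus strand: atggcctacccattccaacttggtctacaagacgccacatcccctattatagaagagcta
Gm13341, chr2:22587903-22587962, minus strand: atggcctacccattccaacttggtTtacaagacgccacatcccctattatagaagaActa
Over these 60 bases Gm28661 had 0 differences and Gm13341 had 2. Over its whole length Gm28661 was 100% identical to mt-Co2, and Gm13341 was 95.8% identical.

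The copies did have counts. Gm13340, the chromosome 2 copy of mt-Co1 (97.6% identical), had 43, 50, 52 and 47 counts in WT and 37, 48, 58 and 34 in GOAT KO. Gm13341 had 45, 28, 37 and 42 counts in WT and 40, 35, 33 and 35 in GOAT KO. Gm11407, a copy of part of mt-Nd5 on chromosome 4 (92.3% identical), had 16, 10, 25 and 10 counts in WT and 13, 16, 16 and 19 in GOAT KO. The groups overlapped for all 3, and none was called, with log2 fold changes of -0.10 ± 0.17 (SE) for Gm13340, -0.07 ± 0.21 for Gm13341 and 0.09 ± 0.32 for Gm11407, at edgeR adjusted p = 0.983, 0.986 and 0.988. The identical copies of the chromosome 1 block were nearly empty: Gm28661 had 0 to 4 counts, Gm28437 (mt-Co3) 1 to 3 and Gm10925 (mt-Atp6) 1 to 9. All 14 copies together held 109 to 139 counts per library, or 0.000631% to 0.000842% of its counts, so that counting them as mitochondrial left the share near 0.

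The transcripts that the authors assembled from the same alignments gave a different picture. Each library listed 9 to 13 transcripts on the mitochondrial chromosome, those of the plus strand at high coverage. None of them carried a reference gene name, against 27.1% to 38.5% of the assembled transcripts on the numbered and sex chromosomes; the 32 to 40 transcripts on unplaced scaffolds and patches carried none either. The mitochondrial chromosome was named MT in the assembled transcripts and in the junction lists, and is named chrM in GENCODE annotations, one of which the file headers name as the guide. Whether these names or the shared windows bear on the zeros was not tested. mt-Rnr1, with 0 shared windows, was covered by a separate piece worth 3161 to 3862 reads in each of the 7 libraries that list one, beside 0 counts.

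As mean coverage times length, the plus-strand pieces held 3.38%, 2.75%, 2.76% and 2.66% of all mapped reads in WT 1118, 1119, 1120 and 1121. In GOAT KO 1139, 1140, 1141 and 1146 they held 2.20%, 2.76%, 2.71% and 2.35%, the last falling to 2.06% where overlapping pieces were counted once. The mean was 2.89% ± 0.33 (SD, n = 4) in WT and 2.51% ± 0.27 (SD, n = 4) in GOAT KO, a difference of -0.38 percentage points, and the groups overlapped. Without WT 1118 the difference was -0.216 percentage points. The sum is over pieces assembled separately in each library, which covered 7702 to 12693 bases in WT and 11102 to 13555 in GOAT KO, at a mean coverage of 3617 ± 975 and 2519 ± 312 (SD, n = 4 each). GOAT KO 1139 listed no plus-strand piece over mt-Atp8 to mt-Co3, and GOAT KO 1146 none over mt-Co1, while each WT library listed both. In GOAT KO 1140 these pieces held 172342 and 221454 reads. The other way, WT 1118, 1120 and 1121 and GOAT KO 1140 listed none over mt-Nd4, and WT 1118 none over mt-Nd5. The difference in the sum thus includes which pieces a library listed. The sum equalled 18.6% to 25.5% of the reads that the authors' summary lists as mapped to no feature. No test was made on a sum over the members.

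**Figure D2:**
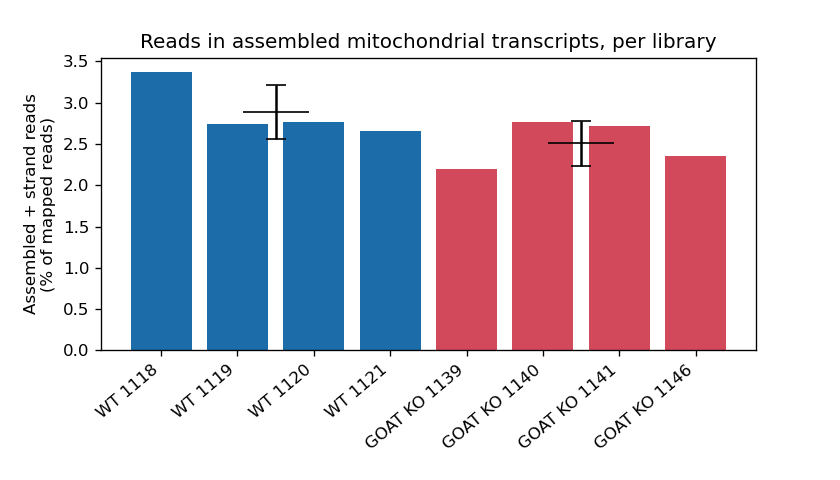
Reads in plus-strand assembled pieces of the mitochondrial chromosome as a percentage of mapped reads, 1 bar per library (blue WT, red GOAT KO), with the mean and SD of each group in black. Values run from 2.20% in GOAT KO 1139 to 3.38% in WT 1118, and the groups overlap.

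The pieces fell into 7 recurrent stretches, and their levels per length are compared here in FPKM (fragments scaled to the length of the piece and to the mapped reads of the library). They are named by the genes at their ends. Levels are given for libraries in which a piece had the same ends to within 100 bases, since a longer or shorter piece averages over other genes. A piece that another overlapped on the same strand was also left out, because the listed levels of overlapping pieces cannot be read apart; this held for the mt-Rnr2 to mt-Nd1 piece (1146 FPKM) and the mt-Nd4 piece (1618 FPKM) of GOAT KO 1146.

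The stretch over mt-Co1, which encodes the catalytic subunit of cytochrome c oxidase, was highest. It stood at 8323, 5856, 5827 and 5961 FPKM in WT 1118, 1119, 1120 and 1121 and at 5760 and 6186 FPKM in GOAT KO 1139 and 1140. WT 1118 was above all others, and the other 3 WT libraries lay between the 2 GOAT KO values. In GOAT KO 1141 the piece ran on through mt-Co2 at 4503 FPKM, and in GOAT KO 1146 no plus-strand piece covered mt-Co1.

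The stretch from mt-Atp8 through mt-Atp6 to mt-Co3, which gives the 2 mitochondrial subunits of ATP synthase and subunit III of cytochrome c oxidase, came next. It stood at 6303, 3623, 4998 and 4648 FPKM in WT and at 4780, 3365 and 3531 FPKM in GOAT KO 1140, 1141 and 1146. The groups overlapped, and the lowest value was in GOAT KO. GOAT KO 1139 listed no plus-strand piece there.

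The stretch from mt-Nd5 (complex I) to mt-Cytb (cytochrome b of complex III) was more even. It stood at 1956, 2076 and 1909 FPKM in WT 1119, 1120 and 1121 and at 1990, 2020, 1671 and 2048 FPKM in GOAT KO 1139, 1140, 1141 and 1146. All but GOAT KO 1141, the lowest, lay within 1909 to 2076 FPKM. In WT 1118 the only plus-strand piece here covered bases 14221 to 15337, within mt-Cytb and the tRNA gene mt-Tt, at 5988 FPKM.

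The other stretches were lower. That of mt-Nd4l and mt-Nd4 (complex I) stood at 1618 FPKM in WT 1119 and at 1624 and 1387 FPKM in GOAT KO 1139 and 1141. That from mt-Rnr2 to mt-Nd1 stood at 1634, 1100 and 1145 FPKM in WT 1118, 1119 and 1121 and at 1165, 1172 and 1102 FPKM in GOAT KO 1139, 1140 and 1141. The piece over mt-Rnr1 stood at 184, 151 and 151 FPKM in these WT libraries and at 152, 165, 120 and 152 FPKM in GOAT KO. In WT 1120 a single piece at 903 FPKM ran from mt-Rnr1 to mt-Nd1, so that neither level can be given for it. The control region, which holds the promoters and no gene, was lowest, at 51.1 FPKM in WT 1119 and 55.4, 50.0, 40.3 and 50.1 FPKM in GOAT KO.

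**Figure D3:**
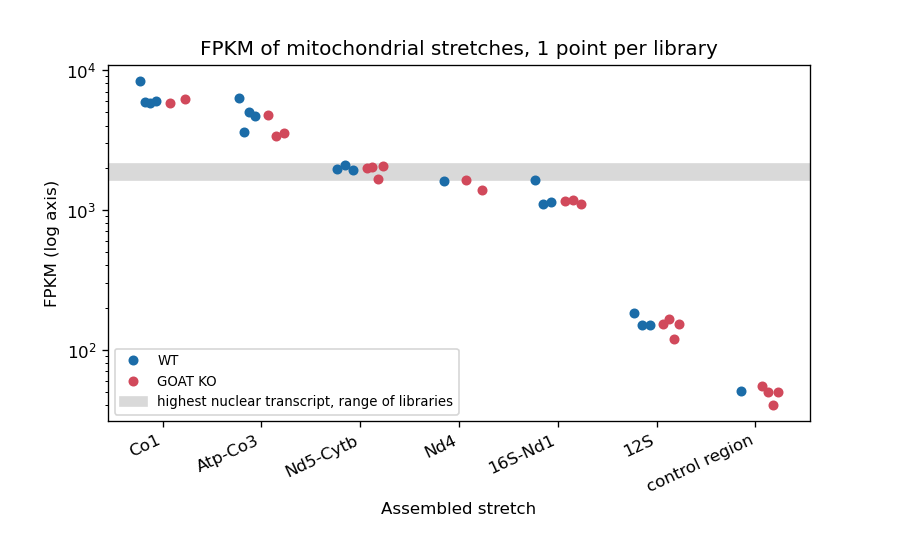
FPKM of each mitochondrial stretch on a log axis, 1 point per library with a matching piece (blue WT, red GOAT KO). The grey band is the range over libraries of the highest nuclear transcript, 1635 to 2113 FPKM, and all points of the mt-Co1 and mt-Atp8 to mt-Co3 stretches lie above it.

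The mt-Co1 stretch stood 39.8 ± 3.1-fold (SD, n = 5 libraries) above mt-Rnr1. It stood 5.17 ± 0.15-fold above the mt-Rnr2 to mt-Nd1 stretch and 2.98 ± 0.13-fold above the mt-Nd5 to mt-Cytb stretch. A stretch over more than 1 gene gives their average. In WT 1118 the piece within mt-Cytb and mt-Tt stood at 5988 FPKM, beside 8323 FPKM for mt-Co1. The mt-Co1 stretch was 1.34 ± 0.17-fold (n = 5) above the mt-Atp8 to mt-Co3 stretch, with a range of 1.17 to 1.62. This was the smallest ratio of the pairs compared. Shared windows make up 99.5% of mt-Atp6, 99.9% of mt-Co3, 51.1% of mt-Co1, 7.61% of mt-Nd5 and 0 of mt-Cytb. How reads from such windows were counted is not given, so ratios between these stretches carry that limit. The mt-Atp8 to mt-Co3 stretch stood 2.13 ± 0.31-fold (n = 6) above the mt-Nd5 to mt-Cytb stretch, with a range of 1.72 to 2.43. The mt-Nd5 to mt-Cytb stretch in turn was 39.4 ± 2.3-fold (n = 5) above the control region. The highest nuclear transcript of a library stood at 1635 to 2113 FPKM. No nuclear transcript was above the mt-Co1 or the mt-Atp8 to mt-Co3 stretch in any library that listed them, 0 to 2 were above the mt-Nd5 to mt-Cytb stretch, and 1 to 6 above the mt-Rnr2 to mt-Nd1 stretch. By contrast, 207 to 406 were above mt-Rnr1. The paper does not state how RNA was selected for sequencing, so levels of rRNA against mRNA here need not be those of the tissue.

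Of the 7 stretches, 5 had at least 2 libraries in each group, and none of these 5 was called between GOAT KO and WT or reached p under 0.05 before adjustment. All were fitted with limma on log2(FPKM + 1) beside 5868 nuclear genes with a reference name and an FPKM in all 8 libraries, a test added after the counts were found to be 0. Of the 5875 features 178 (3.03%) were called by the same thresholds, and 5 had an adjusted p under 0.05. The mt-Atp8 to mt-Co3 stretch had the largest difference, -0.32 ± 0.22 on the log2 scale (SE, limma adjusted p = 0.908), with a 95% interval from -0.86 to 0.22. The difference was -0.10 (interval -0.58 to 0.37) for mt-Co1, -0.15 (-0.61 to 0.31) for mt-Rnr2 to mt-Nd1 and -0.14 (-0.49 to 0.20) for mt-Rnr1. It was -0.04 (-0.28 to 0.20) for mt-Nd5 to mt-Cytb, the narrowest interval. With 1 WT library each, mt-Nd4 differed by -0.11 and the control region by -0.07, and these are given as values alone. The pieces of a library share its depth, so the differences are not separate results. Over the 11 alternative fits, which left out each library in turn among others, the difference ranged from -0.48 to -0.19 for mt-Atp8 to mt-Co3 and from -0.20 to -0.05 for mt-Rnr1, below 0 in each. It ranged from -0.26 to 0.03 for mt-Rnr2 to mt-Nd1, from -0.16 to 0.02 for mt-Co1 and from -0.07 to 0.03 for mt-Nd5 to mt-Cytb. It was above 0 for the first 2 of these without WT 1118 and for the last without GOAT KO 1141. For mt-Atp8 to mt-Co3 it was nearest to 0 without WT 1118 and farthest without GOAT KO 1140.

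Gene by gene, 5 of 37 were assembled over at least 90% of their length on their own strand in all 8 libraries. These were mt-Rnr1, mt-Rnr2, mt-Nd1, mt-Cytb and mt-Tl1, the leucine tRNA that lies between mt-Rnr2 and mt-Nd1. mt-Co1, mt-Atp6, mt-Co3 and mt-Nd5 reached this in 7 libraries and mt-Nd4 in 4. mt-Nd6, the only protein gene on the minus strand and a subunit of complex I, was covered on that strand in WT 1121 and GOAT KO 1141 alone. On the plus strand, to which both belong, mt-Nd2 was covered only in GOAT KO 1146 and mt-Co2 only in GOAT KO 1141. mt-Nd3, with 98.0% shared windows, and the tRNA genes mt-Ta, mt-Tn, mt-Tg, mt-Tr and mt-Tl2 had no assembled base of their own strand in any library, though pieces listed on the other strand covered each of them in at least 1 library. No assembled exon overlapped the chromosome 1 block of copies or the block on chromosome 2 (chr2:22587291-22590533) in any of the 8 libraries.

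**Figure D4:**
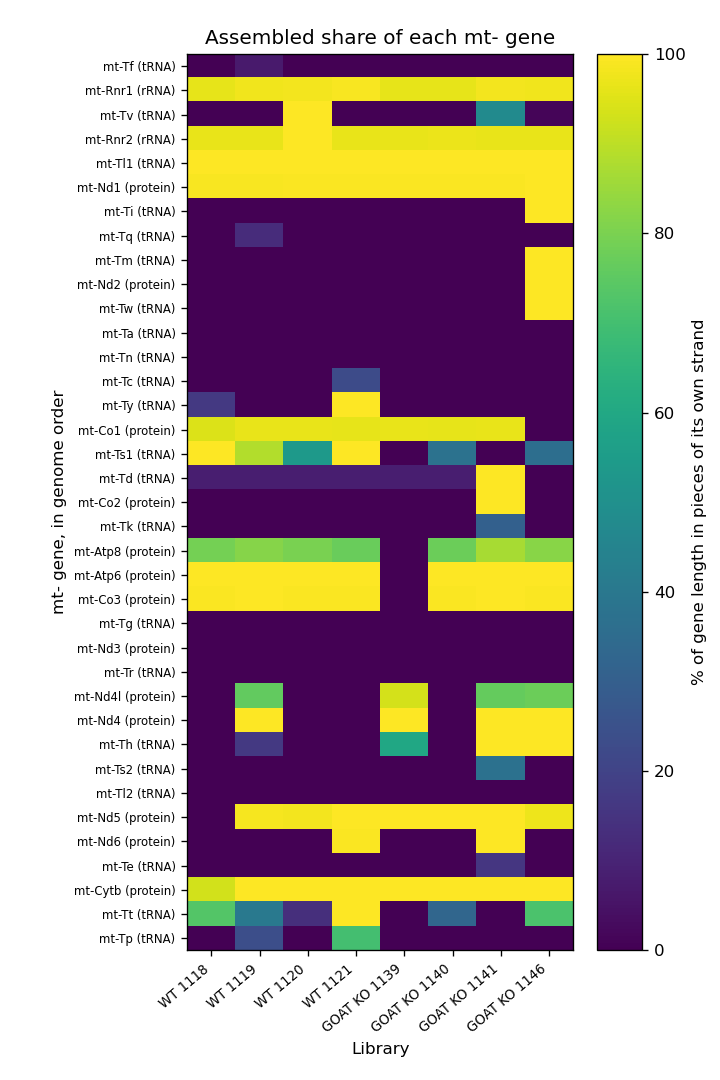
Percent of the length of each mt- gene (rows, in genome order) covered by assembled pieces of its own strand in each library (columns), from 0 (dark) to 100 (yellow). Rows mt-Rnr1, mt-Rnr2, mt-Tl1, mt-Nd1 and mt-Cytb are yellow in all 8 libraries, and mt-Nd3 is dark in all.

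Strands are those that the assembled transcripts list, and no transcript of any library was listed without one. Whether the libraries keep the strand of the RNA is not given in the sources used here. Plus- and minus-strand reads, the coverage of mt-Nd6 included, thus need not stand for sense and antisense RNA. Minus-strand pieces were sparse, with 0.00530% to 0.0193% of mapped reads, or 0.193% to 0.711% of the plus-strand reads. The minus strand carries mt-Nd6 and 8 of the 22 tRNA genes. A minus-strand piece whose left end lay within the mt-Atp8 gene was listed in all 8 libraries. It ended at or next to the end of mt-Co3 in 5 of them, at 21.2 and 29.8 FPKM in WT 1119 and 1120 and at 36.0, 24.4 and 20.1 FPKM in GOAT KO 1139, 1140 and 1146. It ran on to base 11556 in WT 1118 and to the mt-Nd6 gene in WT 1121 and GOAT KO 1141, so that those levels average over other genes.

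The ends of the plus-strand pieces lay near gene ends in several stretches. The mt-Atp8 to mt-Co3 pieces ended 3 to 6 bases before the end of mt-Co3 in 7 libraries, and the mt-Rnr2 to mt-Nd1 pieces 5 to 10 bases before the end of mt-Nd1. The mt-Co1 pieces matched by their ends stopped at base 6947 in all 6 libraries, 75 bases past the end of mt-Co1 and across the minus-strand tRNA gene mt-Ts1, and that of GOAT KO 1141, not matched, at base 7719. In the other stretches the ends were more scattered. Relative to the gene end, pieces matched by their ends stopped at 12 to 90 bases for mt-Nd4, -2 to 75 for mt-Cytb and -20 to 33 for mt-Rnr1. The genes mt-Co3, mt-Nd4 and mt-Cytb have lengths that leave 1 base past their last whole codon, a T in each. The ends of mt-Nd4 and mt-Cytb are shown with that base in capitals.
mt-Nd4, chrM:11515-11544, plus strand: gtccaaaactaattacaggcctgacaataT
mt-Cytb, chrM:15259-15288, plus strand: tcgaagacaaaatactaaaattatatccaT

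Reads split across a gap were listed on the mitochondrial chromosome in 4 of 8 libraries. WT 1118 had 1 such read, GOAT KO 1141 had 1, GOAT KO 1139 had 369 and GOAT KO 1146 had 33, of 2586686 to 3239382 reads across junctions in a library. WT 1119, 1120 and 1121 and GOAT KO 1140 had 0, which allows up to 3. All 369 reads of GOAT KO 1139 shared 1 junction, from base 9391 to base 11560, and 32 of the 33 in GOAT KO 1146 shared another, from base 9391 to base 14158. Both left from the same base, the first of mt-Tg just past the end of mt-Co3, and both were assigned to the minus strand. Their ends are shown because the far blocks are only 8 bases long. Capitals mark the last base before the gap in the first line and the 8 bases of the far block in the others.
mt-Co3 end and first base of mt-Tg, chrM:9362-9391, plus strand: atacgtctccatttattgatgaggatcttA
far block in mt-Th (GOAT KO 1139), chrM:11550-11579, plus strand: tatagtttacAAAAAACAttagactgtgaa
far block in mt-Cytb (GOAT KO 1146), chrM:14148-14177, plus strand: acaaacatacGAAAAACAcacccattattt
On the plus strand both gaps began with CT and ended with AC. GOAT KO 1139, with the 369 reads, was the library with no plus-strand piece over mt-Atp6 and mt-Co3 and with the highest fat and theca markers. Its share of mitochondrial reads (2.20%) was lowest as summed, but above that of GOAT KO 1146 (2.06%) with overlapping pieces counted once. The share sums listed pieces only. It holds nothing for mt-Atp8 to mt-Co3 in GOAT KO 1139 and nothing for mt-Co1 in GOAT KO 1146. The part of the marker levels or of the junction reads in any of these was not tested.

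The nuclear genes that serve the mitochondrial genome were measured by counts. Of 44 genes that replicate, transcribe, process, modify or degrade its DNA or RNA, 0 were called, beside 1.67% of all genes, a share at which under 1 of 44 would be called. Of the 44, 20 lay above and 24 below 0, and the median log2 fold change was -0.0056, as against -0.00035 over all 16601 genes. Trit1 alone had p under 0.05 before adjustment, as did 767 of the 16601 genes; DESeq2 also called 0 of the 44 and gave 1 such p. Of 17 mitochondrial aminoacyl-tRNA synthetases, which charge the mt- tRNAs, 0 were called, which against the same share says little of them, and none reached p under 0.05 before adjustment with edgeR or DESeq2, 11 lay above and 6 below 0, and the median was 0.06. Over both lists the fold changes ran from -0.18 to 0.20 on the log2 scale.

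Polrmt, the mitochondrial RNA polymerase, stood at 46.2, 47.1, 53.8 and 47.3 CPM in WT and 49.4, 43.0, 50.9 and 46.5 CPM in GOAT KO. Tfam, which packs the DNA and starts transcription, stood at 52.2, 63.8, 69.6 and 65.8 CPM in WT and 62.0, 63.4, 62.9 and 62.4 CPM in GOAT KO. In both genes the GOAT KO values overlapped with those of WT, and the log2 fold changes were -0.03 ± 0.08 (SE) and -0.0044 ± 0.083. For the replication proteins Twnk (helicase) and Polg (polymerase) they were -0.01 ± 0.05 and 0.06 ± 0.06.

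Among the genes of RNA processing, Elac2, which cuts at the 3′ ends of tRNAs, differed by -0.07 ± 0.09 on the log2 scale (SE), and Trmt10c, of the enzyme that cuts at their 5′ ends, -0.06 ± 0.07. Fastkd5, needed for mRNA ends with no tRNA beside them, had -0.05 ± 0.10, and Grsf1, of the RNA granules, 0.02 ± 0.06. Mtpap, the poly(A) polymerase, had -0.01 ± 0.06, and Pnpt1, of the RNA degradation complex, -0.05 ± 0.06. Lrpprc and Slirp, partners that hold mitochondrial mRNAs stable, had 0.12 ± 0.08 and 0.06 ± 0.12. None of these 8 genes passed either threshold.

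The 2 members whose groups did not overlap were named after their values were seen. Trit1, which modifies tRNAs, stood at 31.3, 31.7, 32.4 and 31.6 CPM in WT and at 32.8, 35.1, 38.4 and 35.7 CPM in GOAT KO, a log2 fold change of 0.16 ± 0.07 (SE, edgeR adjusted p = 0.983). Pars2, the prolyl-tRNA synthetase, stood at 9.85, 11.1, 10.7 and 11.1 CPM in WT and at 12.6, 12.3, 12.9 and 11.2 CPM in GOAT KO, a log2 fold change of 0.20 ± 0.09 (adjusted p = 0.983). Groups did not overlap in 2.92% of all genes tested, against 1 of 44 and 1 of 17 here. Lars2, the leucyl-tRNA synthetase, had 0.16 ± 0.07 (adjusted p = 0.983), with overlapping groups.

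**Figure D5:**
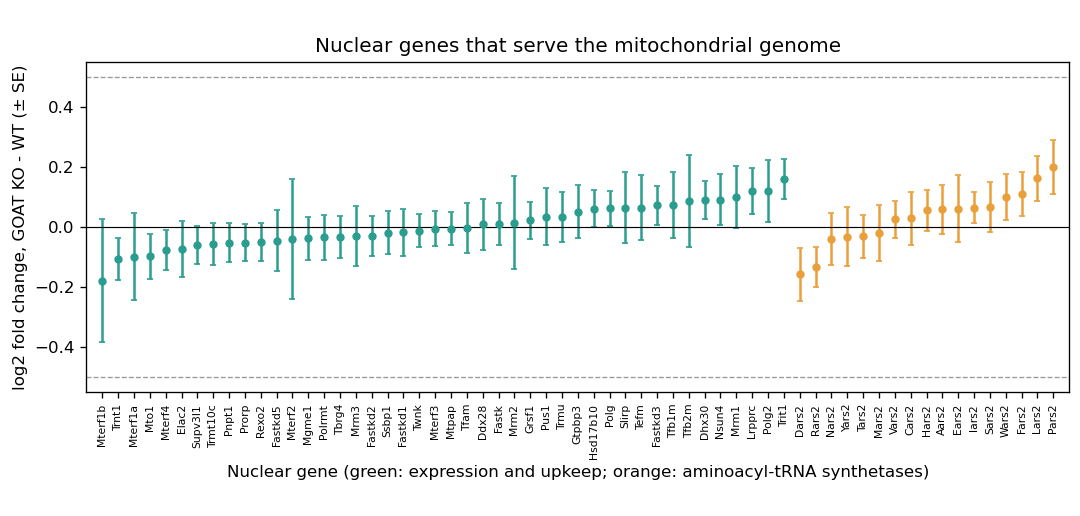
Log2 fold change (GOAT KO minus WT) with its SE for the 44 nuclear genes of mitochondrial genome expression and upkeep (green) and the 17 mitochondrial aminoacyl-tRNA synthetases (orange), sorted within each list. All points lie between -0.18 and 0.20, inside the dashed lines at an absolute value of 0.5.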

How the data were processed

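Total RNA of 8 ovaries was sequenced as 50-base single reads. The authors mapped reads to mm10 with TopHat2 2.0.14, counted reads per GENCODE gene, and assembled transcripts with StringTie 1.0.4, guided by GENCODE. The deposited counts, the counts of mapped reads in the summary and the counts of reads across junctions were used as they stand, and the FPKM and coverage listed in the assembled transcripts (the other attributes of the deposited annotation) came from the authors. How multiply mapped reads were counted is not given in the sources used here.

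All 8 libraries entered edgeR 4.0.16 (R 4.3.3; TMM, filterByExpr, quasi-likelihood test), with DESeq2 1.42.0 as an alternative; limma 3.58.1 was run on log2(FPKM + 1), with a pseudocount of 1. CPM used edgeR's scaled library sizes. The planned test of mt- genes could not be made, since all were at 0, and the assembled pieces and junctions were used in its place; pieces were matched within 100 bases. Nuclear copies were sought by 50-base windows shared with GENCODE transcripts, on both strands, and aligned with edlib 1.3.9.post1. Scripts were tested on simulated data. Members and gene lists were chosen with earlier results of these data known. All mt- genes were accounted for. By the naming rule, mt- tRNA genes and nuclear copies were named at a mean of at least 10 counts, nuclear list genes where called, and 13 nuclear genes whatever their values. tRNA genes named by assembly, chromosome 1 copies, Trit1 and Pars2 were added. p-values measure the spread between single mice.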

Additional observations from a re-analysis of the deposited data

Results flagged for a closer look

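Of the 48 groups of 4 libraries examined for a library far from the other 3, 8 were flagged, where chance flags about 1 in 20. WT 1118 stood apart on the mt-Co1 stretch (8323 FPKM) and on the plus-strand share of mapped reads (3.38%). GOAT KO 1141 stood apart on the mt-Nd5 to mt-Cytb stretch (1671 FPKM) and on the minus-strand share (0.0193%). Among nuclear genes, Polrmt was highest in WT 1120 (53.8 CPM), Mtpap lowest in GOAT KO 1139 (53.2 CPM) and Fastkd5 lowest in GOAT KO 1146 (8.89 CPM). GOAT KO 1139 stood apart on reads across mitochondrial junctions (369). These junction reads lie outside the gene counts, and those of GOAT KO 1139 (369) and GOAT KO 1146 (33) were above the highest WT library, which had 1.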

How the results depend on the processing

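All settings for the counts were planned, and those for the assembled pieces were chosen after seeing the data. The number of mt- genes called was 0 in 14 of 14 alternatives. It was 0 because none was tested in 13 of them, and with the nuclear copies added 3 were tested. No fold change of an mt- gene could be computed under the deposited counts. With the copies added, the share of counts on all mt- genes differed by -6.08e-05 percentage points between GOAT KO and WT, and that on protein genes by -6.08e-05 as well. The difference in the assembled plus-strand share ranged from -0.464 to -0.216 percentage points over 10 alternatives, the smallest without WT 1118. None of the alternatives limited the sum to stretches listed in every library, so they do not show whether the difference holds over the same stretches. No nuclear list gene was called in any alternative run, nor any of the 5 stretches with at least 2 libraries in each group. Of 13 named nuclear genes, 156 of 156 alternative values stayed uncalled, though Lars2 passed p under 0.05 alone without WT 1118 (edgeR unadjusted p = 0.0272) and without GOAT KO 1139 (0.0312). Fits of a stretch with 1 library in a group assume that it varies like the others and say nothing of stability; the mt-Nd4 and control region stretches could not be fitted without WT 1119. The number of genes called overall was 278, and 691 with no filter on low counts, where 27459 genes were tested; it ran from 231 to 437 when each library was left out, and was highest without WT 1120. Without WT 1120 and GOAT KO 1139, a pair that need not be the outliers of the study, it was 398. The causes were not tested. No paired analysis was possible because the groups share no replicate number. Only matched pieces entered the stretches, which leaves 1 to 4 libraries per group, and the depth of single bases within a piece is not listed.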
